A study of Mus musculus with 12 samples.

Results

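The complement components and regulators described here were 7 mouse genes, C3, Cfb, C1ra, C1s1, C4b, Cd55 and Cd59a, taken from a table of 78317 genes by their symbols. The rule is a list of names with no threshold on any value. All 7 had counts, but in widely different amounts: C3 summed to 1392 counts over the 12 libraries, whereas the other 6 each stayed under 100 counts in all and under 2 CPM, the count scaled by the library total, in every library. A filter on low counts left 14012 genes for testing, and C3 was the single member among them. The results therefore turn on C3, and the other 6 genes are given as counts with their counting error.

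Messenger RNA was measured in 4T1 cells, a mouse mammary carcinoma line used as a model of triple negative breast cancer, in 4 groups of 3 biological replicates. Control cells and cells with a knockout (KO) of PBRM1, a subunit of the PBAF chromatin remodelling complex, were each grown untreated or with 5 ng/ml TGFβ1 for 4 days. The protocol describes 4 days with or without TGFβ1, but the titles of untreated samples read 0h; if these were taken at the start, 4 days of culture cannot be told apart from TGFβ1 in any TGFβ1 difference below. The control and KO libraries carry sgCt and sgPB in their names. Neither the site of the edit nor whether the KO cells were 1 clone or a pool is given in the sources used here. All 4 groups were cultured cells grown in serum, with no host tissue.

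Complement is a set of plasma and surface proteins that tag cells and microbes for removal. C1r and C1s are proteases of the classical pathway, in which C1s cuts C4 and C2, while factor B carries the protease of the alternative pathway. Both routes build convertases that cleave C3, the shared centre of the cascade, and CD55 and CD59 on the cell surface hold back the convertases and the final pore. The liver makes most circulating complement, but epithelial and tumour cells also transcribe C3, and inflammatory cytokines raise it through factors of the C/EBP and NF-κB families.

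The promoter window of C3 is shown because C3 is the member whose level differed between groups. It comes from RefSeq on GRCm38.p6, spans chr17:57228087-57228386 on the minus strand, and holds 250 bases before and 50 bases after the annotated start. Windows were found for 5 of the 7 members. Capitals mark matches to the C/EBP-type letters TTNNGNAA, searched on both strands, and to the TATA letters TATAAA, searched on the strand of the gene.
C3: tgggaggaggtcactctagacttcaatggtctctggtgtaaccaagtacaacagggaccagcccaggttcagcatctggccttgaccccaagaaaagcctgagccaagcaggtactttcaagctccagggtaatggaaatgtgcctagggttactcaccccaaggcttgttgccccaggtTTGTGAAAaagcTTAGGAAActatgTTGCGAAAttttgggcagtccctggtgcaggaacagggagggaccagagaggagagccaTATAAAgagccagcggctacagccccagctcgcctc

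Counted from 1 at the 5′ end of the C3 window, the C/EBP-type matches began at positions 181, 193 and 206, and none overlapped another or the TATA match at position 265. The TATA match lay after the annotated start, at an offset of 14 bases, and the C/EBP-type matches lay before it, at -70, -58 and -45. The match at position 206 read as a match on both strands. C/EBP-type letters are common: 40.7% of 32851 promoter windows of this length held them, against 8.32% with TATAAA. The κB motif (8.46% of windows), the GAS letters TTCNNNGAA (8.3%), the ISRE core (3.44%), the AP-1 letters TGANTCA (7.81%) and the SMAD palindrome GTCTAGAC (0.21%), all searched on both strands, had no match in the C3 window. These are matches of letters only, and the motifs were chosen with the sequence in view.

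Library totals ran from 9265693 to 11250850 counts, and replicates correlated at 0.978 to 0.992 on the log CPM scale. Both TGFβ1 replicate 3 libraries stood apart from their groups. On the first principal component, which held 53.2% of the variance, untreated libraries lay between -33.1 and -18.9 and TGFβ1 replicates 1 and 2 between 38.9 and 43.7, with TGFβ1 replicate 3 at 1.40 in control and -1.04 in KO cells. Each C3 result is therefore given with and without these libraries. Pbrm1 itself was at 282 ± 39.5 CPM in untreated control and 225 ± 19.1 in untreated KO cells (SD, n = 3), and at 286 ± 8.68 and 243 ± 27.1 with TGFβ1; a 3′ tag need not cover an edited site, so these values do not check the edit. All 8 epithelial markers were detected, with sums of 2754 to 2972 CPM in untreated control, 2042 to 2536 in treated control, 2464 to 2679 in untreated KO and 2316 to 2669 in treated KO libraries. TGFβ1 lowered 4 of the 8 in control and 3 in KO cells and raised 0 and 1, in edgeR. Of all genes tested, 2.91% and 3.72% were called lower and 5.89% and 7.65% higher. Without both TGFβ1 replicate 3 libraries, 4 markers were lowered in each genotype, and 2 were raised in control and 3 in KO cells. That fit called 3414 and 3984 of 14260 genes in either direction.

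C3 was lower in PBRM1 KO than in control cells with and without TGFβ1, and it rose with TGFβ1 in KO cells. Untreated control libraries had 14.4, 10.6 and 10.6 CPM of C3, from 159, 115 and 100 counts, and untreated KO libraries had 2.13, 3.64 and 2.40 CPM, from 24, 40 and 26 counts. The 3 KO libraries all lay below the 3 control libraries, with no overlap. The means were 11.9 ± 2.17 and 2.73 ± 0.803 CPM (SD, n = 3), a 4.35-fold lower level in KO cells. On the log2 scale the difference was -2.12 ± 0.33 (SE), with an edgeR adjusted p of 0.0184. C3 was thus 1 of 1 member tested called lower in untreated KO cells, where 0.236% of all genes tested were called lower.

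With TGFβ1, control libraries had 22.3, 29.0 and 15.9 CPM of C3 from 207, 321 and 168 counts. The KO libraries had 10.3, 7.87 and 3.93 CPM from 109, 79 and 44 counts. Again every KO library lay below every control library, and replicate 3 was the lowest of both groups. The means were 22.4 ± 6.57 and 7.36 ± 3.21 CPM (SD, n = 3), which is 3.05-fold lower in KO cells. The log2 difference was -1.62 ± 0.29 (SE) with an edgeR adjusted p of 0.0322, and 0.2% of all genes tested were called lower in this comparison. Fitted on only the 6 libraries compared, C3 did not pass (edgeR adjusted p = 0.315).

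**Figure D1:**
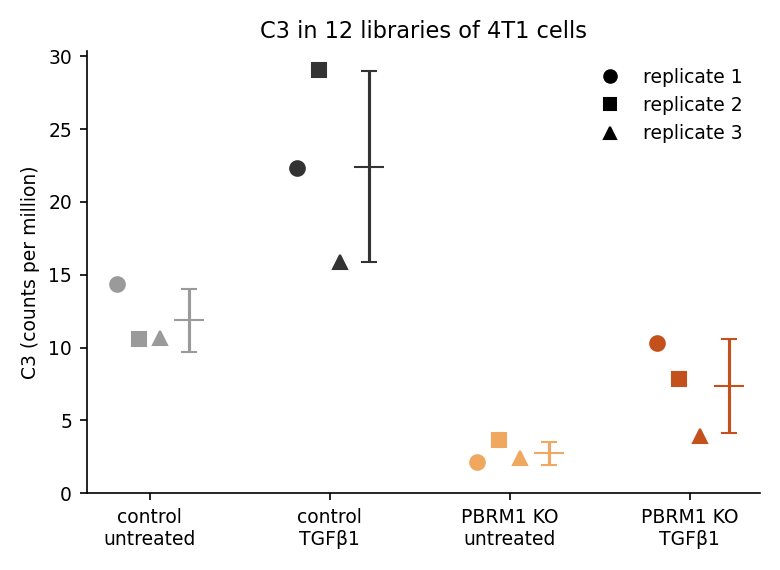
C3 in CPM (y axis) in each of the 12 libraries, by group (x axis); marker shapes give the replicate number and bars the mean ± SD of 3 libraries. Every PBRM1 KO library lies below every control library of the same treatment, and TGFβ1 replicate 3 (triangles) is the lowest library of both TGFβ1 groups, at 15.9 and 3.93 CPM.

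TGFβ1 raised C3 in KO cells, from a mean of 2.73 to 7.36 CPM, or 2.70-fold. The log2 change was 1.41 ± 0.34 (SE) with an edgeR adjusted p of 0.0194, in a comparison where 7.65% of all genes tested were called higher. With limma-voom C3 did not pass (1.33 ± 0.41, adjusted p = 0.0601). The 3 treated KO libraries lay 1.84, 1.49 and 0.54 above the untreated KO mean on the log2 scale. Replicate 3, at 3.93 CPM, was close to the highest untreated KO library, at 3.64 CPM.

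In control cells the mean of C3 went from 11.9 to 22.4 CPM with TGFβ1, or 1.89-fold, and the 2 ranges did not overlap. The log2 difference of 0.91 ± 0.27 (SE) had an edgeR adjusted p of 0.0551 and an unadjusted p of 0.00525. No member was therefore called by edgeR in control cells, where 5.89% of all genes tested were called higher; DESeq2 called C3 and limma-voom did not. The steps from the untreated control mean were 0.91, 1.28 and 0.44 on the log2 scale for replicates 1, 2 and 3.

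The size of the TGFβ1 step did not differ detectably between the genotypes. The interaction for C3 was 0.50 ± 0.44 (SE) on the log2 scale, with an edgeR adjusted p of 1.00 and an unadjusted p of 0.281. Over all genes tested, edgeR, DESeq2 and limma-voom each called 0 interactions (percent called 0). In edgeR 247 genes, 1.76% of those tested, had an unadjusted p under 0.05. That share is below what a threshold of 0.05 gives when no gene differs, so the test could miss a difference. With no interaction called, a call of C3 with TGFβ1 in KO cells and not in control cells is no sign of a difference between them.

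In the order of their means, C3 was highest in control cells with TGFβ1, then in untreated control cells, then in KO cells with TGFβ1, and lowest in untreated KO cells. The middle pair had means of 11.9 CPM in untreated control and 7.36 CPM in treated KO cells. Their libraries nearly met: the highest treated KO library, at 10.3 CPM, lay just under the lowest untreated control library, at 10.6 CPM. No test of this pair was run. In bulk RNA, fewer cells that transcribe C3 and less C3 RNA per cell cannot be told apart.

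Without both TGFβ1 replicate 3 libraries, the C3 steps were larger and all 4 differences passed. In edgeR, TGFβ1 then gave 1.10 ± 0.17 in control cells (adjusted p = 0.000271) and 1.71 ± 0.24 in KO cells (adjusted p = 7.64e-05). The genotype differences were -2.12 ± 0.21 untreated (adjusted p = 9.4e-05) and -1.52 ± 0.20 with TGFβ1 (adjusted p = 0.00379), and the interaction was 0.61 ± 0.30 (adjusted p = 1.00). With the replicate number as a block, C3 in control cells passed as well, at 0.90 with an edgeR adjusted p of 0.0066.

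The calls of C3 rested on few libraries even though its direction held. Leaving out 1 library at a time kept the sign of all 4 log2 differences, and the call held in 2 of 6 such fits for TGFβ1 in KO cells. It held in 2 of 6 for genotype without TGFβ1 and 3 of 6 with it. The call in KO cells with TGFβ1 was lost without untreated KO replicate 1 (edgeR adjusted p = 0.0887) or 3 (0.0715), or without treated KO replicate 1 (0.108) or 2 (0.0731). The untreated genotype call was lost without control replicate 1 (edgeR adjusted p = 0.0763) or 2 (0.0541), or without KO replicate 1 (0.109) or 3 (0.124). The genotype call with TGFβ1 was lost without control replicate 1 (edgeR adjusted p = 0.0984) or 2 (0.131), or without KO replicate 2 (0.117). For TGFβ1 in control cells, where edgeR made no call on 12 libraries, C3 passed in 1 of 6 such fits, without treated control replicate 3 (adjusted p = 0.0114).

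**Figure D2:**
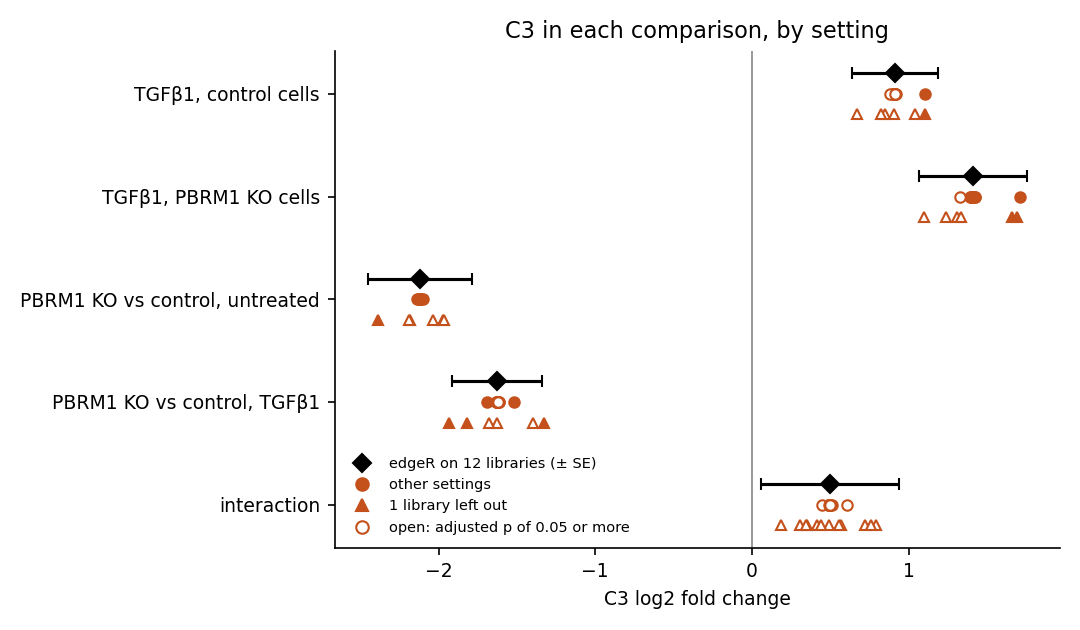
C3 log2 fold change (x axis) in 5 comparisons (y axis): edgeR on 12 libraries with its SE (diamonds), other settings (circles) and fits with 1 library left out (triangles), filled where the adjusted p is below 0.05. All 4 group differences keep their sign throughout, from -2.38 to -1.97 for genotype in untreated cells with 1 library left out and from 0.67 to 1.10 for TGFβ1 in control cells, while many triangles are open.

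The serine proteases that start the classical pathway were near the limit of detection. C1ra, which encodes C1r, had 6, 4.5 and 2.5 counts in untreated control libraries, 5, 9 and 7 in control with TGFβ1, 7, 9 and 3 in untreated KO and 3, 7 and 7 in KO with TGFβ1. The 4 groups overlapped. Its ratio of summed counts, scaled by the library totals, was 1.38 (exact binomial 95% interval 0.649 to 3.05) for KO over control in untreated cells and 1.64 (0.783 to 3.56) for TGFβ1 in control cells. The intervals given for such ratios cover counting error only, and fractional sums were rounded before they were computed.

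C1ra shared 50.8% of the 50-base stretches of its transcript with another gene, chiefly its paralog C1rb, and 19.1% in its last 500 bases, so reads of C1ra and C1rb could be split by the counting. C1rb summed to 6, 11, 17 and 14 counts in the 4 groups in the same order. With C1rb added, the ratio of KO over control in untreated cells was 1.80 with an interval of 1.003 to 3.31, which left out 1, while the other 3 comparisons of C1ra with C1rb had intervals that included 1. This interval, too, covers counting error only. When edgeR was run on members summed with paralogs, 2 members were tested for genotype in untreated cells, and C3 alone was called.

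C1s1, which encodes C1s, had 1, 7 and 10.25 counts in untreated control libraries, 2, 11 and 3 in control with TGFβ1, 2.5, 4 and 3 in untreated KO and 3, 5 and 3 in KO with TGFβ1. The highest libraries were control libraries, but others of the same groups were as low as the KO libraries. The ratio of KO over control was 0.526 (0.217 to 1.20) untreated and 0.667 (0.280 to 1.53) with TGFβ1. Single libraries set these ratios: untreated it was 0.829 (0.295 to 2.42) without control replicate 3 and 0.360 (0.148 to 0.833) without control replicate 1, and with TGFβ1 it was 1.37 (0.439 to 5.03) without control replicate 2. Its paralog C1s2 had at most 2 counts in a library.

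C4b, whose product C4 is cut by C1s and forms the classical C3 convertase, had 1 to 4 counts in every library and summed to 7, 10, 10 and 8 counts in untreated control, treated control, untreated KO and treated KO cells. The groups overlapped, and the ratios ran from 0.776 (0.266 to 2.19) for genotype with TGFβ1 to 1.45 (0.498 to 4.48) for TGFβ1 in control cells. C4b shared 38.1% of the 50-base stretches in its last 500 bases with C4a, which summed to 3 to 5 counts per group.

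Cfb, which encodes factor B, summed to 3.5 counts in untreated control, 5 in treated control, 0.5 in untreated KO and 1.5 in treated KO cells. Its highest libraries, with 3, 2 and 2.5 counts, were all control libraries, but other control libraries had 0 or 0.5. The ratio of KO over control was 0.237 (0.00481 to 2.39) untreated and 0.388 (0.0370 to 2.37) with TGFβ1, so a difference was not detectable at this depth. Cfb shared 91.6% of the 50-base stretches in its last 500 bases with Gm20547, which had the same count as Cfb in 11 of 12 libraries. With both summed, an alternative chosen after the counts were seen, the ratios were 0.135 (0.00300 to 1.05) and 0.291 (0.0515 to 1.13). The counts of Gm20547 nearly repeat those of Cfb, so the sum adds little, and the rounding of fractional sums also moves the ratio. These intervals hold only if reads were divided between both genes, which the sources used here do not state.

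The membrane regulators were as sparse. Cd55, which speeds the decay of C3 convertases, had at most 2 counts in a library and summed to 2, 2, 1.5 and 1 counts in the 4 groups. All 4 sums lay under 3 counts, the limit that a count of 0 allows, so no fold is given. Cd59a, which blocks assembly of the final pore, had 2.5, 2.5 and 5 counts in untreated control and 7.5, 6 and 4.5 in control with TGFβ1. In KO cells it had 5.5, 0 and 2 counts untreated and 6, 2 and 2.5 with TGFβ1. Its ratio for TGFβ1 in control cells was 1.83 (0.799 to 4.43), and for genotype with TGFβ1 it was 0.593 (0.253 to 1.33).

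In all, the low members allowed 19 such ratios, and every interval included 1. With no filter on low counts edgeR tested all 7 members and called C3 alone, with adjusted p of 0.561 to 1 for the other 6 over the 5 comparisons. At these depths 3 counts amount to 0.267 to 0.324 CPM in a library, and several of the values above lie at or under that level.

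**Figure D3:**
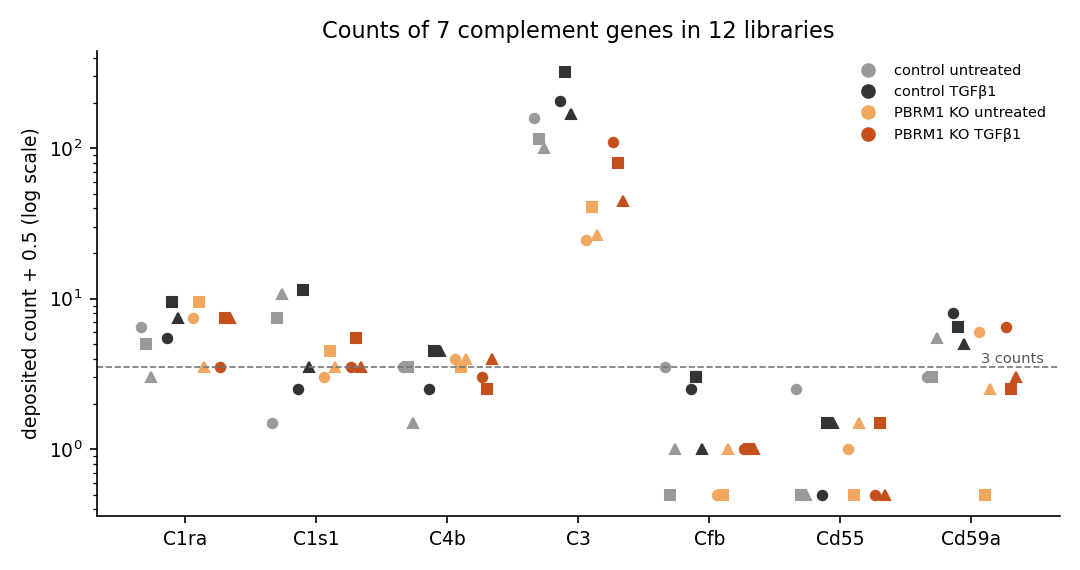
Deposited counts plus 0.5 (y axis, log scale) of the 7 genes (x axis) in each library, coloured by group, with circles, squares and triangles for replicates 1, 2 and 3 and a dashed line at 3 counts. C3 has 24 to 321 counts, with every KO library below every control library of the same treatment, while the other 6 genes stay at 11 counts or fewer in every library with the groups mixed.

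A list of 53 other complement genes, covering recognition, proteases, terminal components, regulators and receptors, gives the surroundings of C3. Of these, 12 had no count in any library, 14 had 1 to 3 counts over all 12 libraries, and 8 could be tested. TGFβ1 raised 2 of 8 in control cells and 3 of 8 in KO cells and lowered none, with 3 and 4 raised and none lowered at an unadjusted p under 0.05, where 14.3% and 15.7% of all genes tested were raised and 10.2% and 11.5% lowered. The median log2 change was 0.30 and 0.12, against 0.00 over all genes tested in both. Of all genes tested, 2.91% in control and 3.72% in KO cells were called lower with TGFβ1, beside the shares called higher given above. For genotype, 1 of 8 was lower in untreated KO cells and none higher, where 0.236% of all genes tested were called lower and 0.0428% higher. None was called with TGFβ1, where 0.2% of all genes tested were called lower and 0.0714% higher. At an unadjusted edgeR p under 0.05, 1 of 8 was lower with TGFβ1, against 4.44% of all genes tested, and DESeq2 called none. When both TGFβ1 replicate 3 libraries were left out, TGFβ1 raised 3 of these genes and lowered 1 in each genotype, and 2 and 1 were lower in KO cells without and with TGFβ1. Of 14260 genes tested in that fit, TGFβ1 changed 3414 in control and 3984 in KO cells. Genotype calls numbered 201 without and 76 with TGFβ1. Cfi is among the complement genes raised in control cells and is the 1 lower in KO cells with TGFβ1. It enters that fit only through its high libraries, so these counts of it support nothing. With the replicate block, TGFβ1 raised 3 of 8 in KO cells and lowered 1, where 1682 of 14012 genes tested were raised and 1098 lowered.

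Clu, a soluble regulator that binds terminal complement complexes, had the largest TGFβ1 changes of the 8 genes tested over 12 libraries. Its level rose from 112 ± 16.0 to 890 ± 449 CPM in control cells and from 67.6 ± 13.3 to 818 ± 405 CPM in KO cells (SD, n = 3). The edgeR log2 changes were 2.99 ± 0.43 (adjusted p = 0.00109) and 3.58 ± 0.44 (adjusted p = 0.000336). As with C3, TGFβ1 replicate 3 was the lowest treated library in both genotypes, at 375 and 352 CPM. For genotype, Clu did not pass without TGFβ1 (-0.73 ± 0.41, edgeR adjusted p = 0.802) or with it (-0.13 ± 0.39, adjusted p = 0.972); without both TGFβ1 replicate 3 libraries the untreated difference passed (-0.73 ± 0.12, adjusted p = 0.00655).

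Masp1, a protease of the lectin pathway, rose with TGFβ1 by 1.02 ± 0.20 in control cells (edgeR adjusted p = 0.00866) and 1.22 ± 0.20 in KO cells (adjusted p = 0.00206) on the log2 scale. Its treated replicate 3 libraries were the highest of their groups, at 6.06 and 6.43 CPM. Its genotype differences of 0.01 and 0.21 did not pass. Itgb2, the beta chain of complement receptors 3 and 4, was lower in untreated KO cells, at 10.8 ± 2.25 against 18.3 ± 2.31 CPM (SD, n = 3), with a log2 difference of -0.76 ± 0.14 (edgeR adjusted p = 0.045). It rose in KO cells with TGFβ1 by 0.69 ± 0.14 (edgeR adjusted p = 0.00863), and it is also among the leukocyte markers given at the end.

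Cr1l encodes Crry, the main membrane regulator that limits C3 activation on rodent cells, and it was detected in every library. It had 28.8 ± 0.846 CPM in untreated control, 31.3 ± 1.72 in treated control, 28.7 ± 2.92 in untreated KO and 34.3 ± 2.33 in treated KO cells (SD, n = 3). None of its 4 differences passed, with edgeR log2 values of 0.12 and 0.24 for TGFβ1 and -0.00 and 0.12 for genotype. Cfi, the protease that inactivates C3b, was singled out after its counts were seen: it had 15 and 17 counts in control TGFβ1 replicates 1 and 2, and at most 2 in any other library. It did not pass the filter over 12 libraries, and control TGFβ1 replicate 3 had 1 count.

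**Figure D4:**
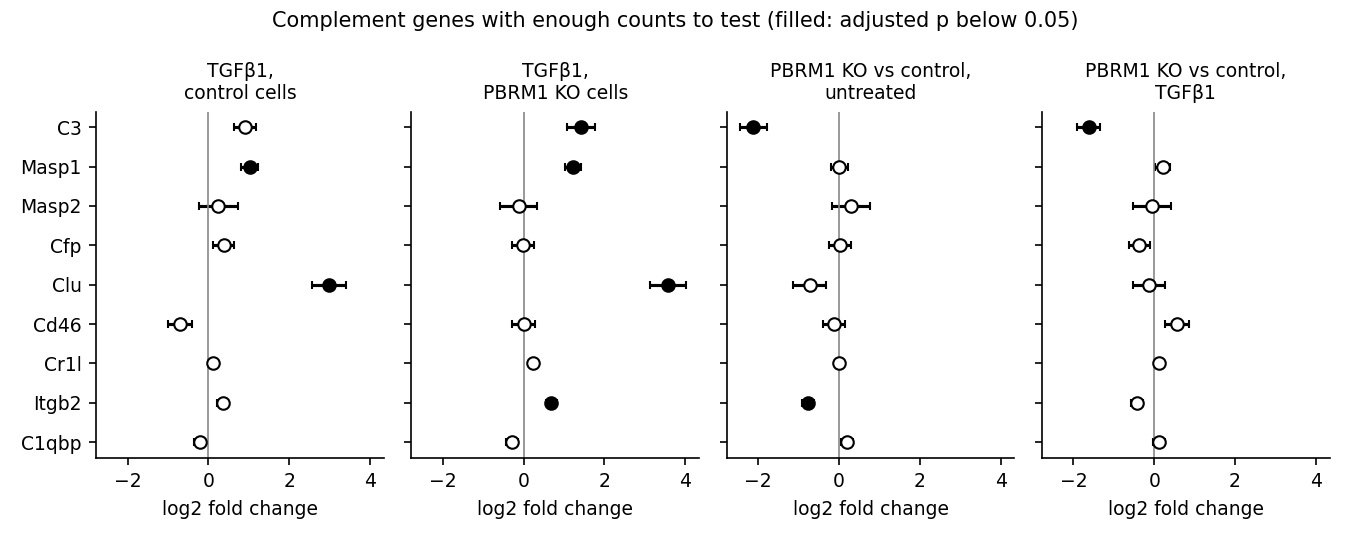
Log2 fold change ± SE (x axis) of C3 and the 8 other complement genes with enough counts to test (y axis) in 4 comparisons, filled where the edgeR adjusted p is below 0.05. C3 is filled in both genotype panels, at -2.12 and -1.62, and Clu has the largest TGFβ1 changes, at 2.99 and 3.58.

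C3 is an acute phase gene, and 3 of 18 other acute phase genes could be tested. TGFβ1 raised 3 of 3 in control cells and 2 of 3 in KO cells, where 5.89% and 7.65% of all genes tested were called higher. In KO cells the count was 3 of 3 with the replicate block and 0 of 3 with limma-voom. Those fits called 1682 and 837 of 14012 genes tested higher. Lcn2, 1 of the 3, was lower in KO cells in both genotype comparisons, where 0.236% and 0.2% of all genes tested were called lower. Lcn2, an iron carrier binding protein of inflammation, differed between genotypes by -4.90 ± 0.40 untreated (edgeR adjusted p = 6.08e-05) and -4.25 ± 0.32 with TGFβ1 (adjusted p = 7e-05). Cp, the copper ferroxidase ceruloplasmin, rose with TGFβ1 by 0.93 ± 0.25 in control (edgeR adjusted p = 0.0333) and 0.85 ± 0.25 in KO cells (adjusted p = 0.0465). Its genotype differences of -0.90 and -0.98 did not pass (edgeR adjusted p = 0.244 and 0.161), but with the replicate block they did (0.0176 and 0.00903).

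Among 22 genes for factors and receptors known to induce C3, TGFβ1 raised 6 and lowered none in control cells, and raised 2 and lowered 1 in KO cells. Of all genes tested, 5.89% and 2.91% were raised and lowered in control and 7.65% and 3.72% in KO cells, so the KO shares lay near those of all genes. With the replicate block, TGFβ1 raised 6 of 22 in KO cells and lowered 1, where 1682 of 14012 genes tested were raised and 1098 lowered. Without both TGFβ1 replicate 3 libraries, it raised 10 in control and 8 in KO cells and lowered 1 in each. In that fit 3414 genes in control and 3984 in KO cells were called in either direction, of 14260 tested. None differed between untreated genotypes in edgeR, where 5 of 22 were lower at an unadjusted p under 0.05, against 4.36% of all genes tested; DESeq2 called 1 and limma-voom none. With TGFβ1, 1 of 22 was lower in KO cells, where 0.2% of all genes tested were called lower: Cebpb, which encodes C/EBPβ. Cebpb had 524, 618 and 432 CPM in treated control libraries and 262, 331 and 238 CPM in treated KO libraries, with no overlap. Its log2 difference was -0.93 ± 0.16 (edgeR adjusted p = 0.0322). Untreated control libraries had 277.8, 275.7 and 275.5 CPM of Cebpb and untreated KO libraries 153, 233.9 and 162.9 CPM, also with no overlap. EdgeR did not call that difference, and it called no interaction for any gene. TGFβ1 raised Cebpb by 0.92 ± 0.16 in control (edgeR adjusted p = 0.00458) and 0.58 ± 0.16 in KO cells (adjusted p = 0.0381).

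The 3 genes whose levels followed C3 most closely, among those with a mean of at least 10 CPM and a plain symbol, were Cyba, Cp and Ercc2. Their Pearson r with C3 on the log2 CPM scale over the 12 libraries was 0.966, 0.960 and 0.948, and 0.669, 0.947 and 0.735 after the group means were removed. The libraries share the group differences and the position of TGFβ1 replicate 3, so these values describe likeness only. Cyba, a subunit of the phagocyte NADPH oxidase, ran from 52.1 CPM in an untreated KO library to 121 CPM in a treated control library. Cp ran from 30.5 to 176 CPM between the same groups, and Ercc2, a helicase of transcription and DNA repair, from 9.33 to 13.8 CPM.

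**Figure D5:**
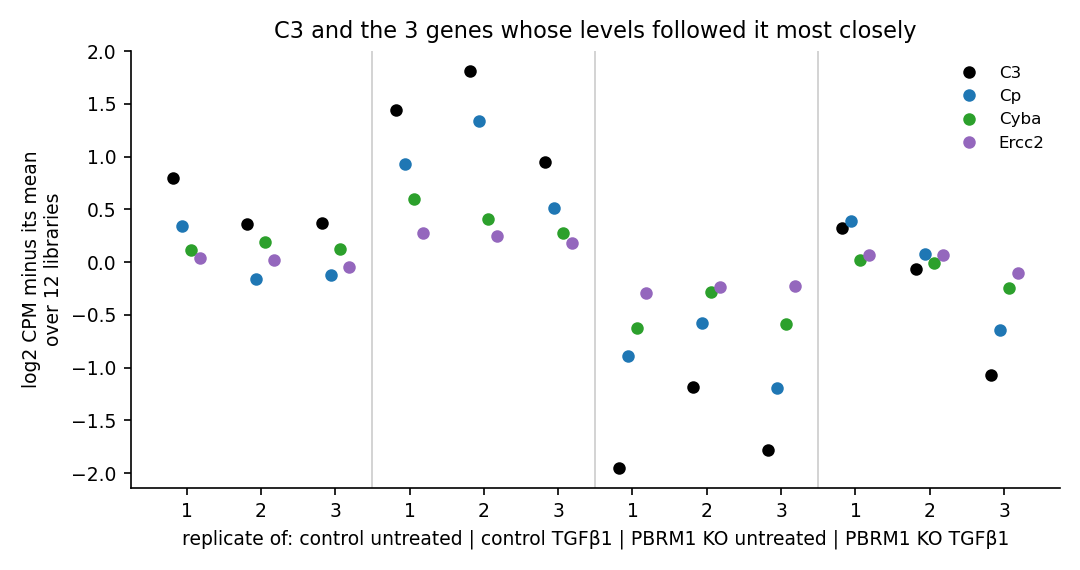
Log2 CPM minus the mean over 12 libraries (y axis) of C3, Cp, Cyba and Ercc2 in each library (x axis, replicates 1 to 3 of each group). All 4 genes have their lowest group mean in untreated PBRM1 KO cells and their highest in control cells with TGFβ1, and C3 has the widest range, with 2.13 to 29.0 CPM on the linear scale.

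Markers of other cell types that can make complement were also measured, and their part in the C3 differences was not tested. All 12 leukocyte markers had some count. Their sums were 36.8 to 39.5 CPM in untreated control and 47.7 to 53.9 in treated control libraries. In KO libraries they were 26.4 to 35.4 untreated and 44.4 to 49.0 treated. The list's sum was thus higher with TGFβ1 in both genotypes and lower in untreated KO than in untreated control cells, with no overlap. C3 shared these directions. Itgb2, 1 gene of the list, had 16.9 to 20.9 CPM in untreated control and 9.16 to 13.4 in untreated KO libraries. Over the 4 markers tested, the median log2 genotype difference in untreated cells was 0.0023. With TGFβ1 the sums of control and KO libraries overlapped. Of these markers, Ptprc, Itgam, Adgre1, Tyrobp and Cd3e had at most 2 counts in a library. Itgb2 had 9.16 to 23.6, Cd14 9.06 to 21.2, Cd68 3.62 to 7.83 and Lyz2 1.17 to 2.58 CPM in every library, and Fcer1g and Csf1r had up to 21 and 13 counts. In edgeR 4 of the 12 were tested. Cd14 rose with TGFβ1 in control cells (edgeR adjusted p = 0.02), Cd14 and Itgb2 rose in KO cells, and Itgb2 was lower in untreated KO cells. The shares of all genes tested called in these directions were 5.89%, 7.65% and 0.236%. The 9 fibroblast markers all had counts. They summed to 36.2 to 50.7, 34.5 to 110, 29.2 to 39.8 and 30.5 to 65.8 CPM in the same order of groups, with overlap. Over the 6 tested, the median log2 change with TGFβ1 was 0.49 in control and 0.15 in KO cells. The median genotype difference was -0.45 untreated and -0.30 with TGFβ1. C3 had the same signs. In edgeR 1 of the 6 was called higher with TGFβ1 in KO cells, where 7.65% of all genes tested were, and none in the other comparisons. Of 4 hepatocyte markers Ttr was at 0 and Alb had at most 1 count in a library, with sums of 0.179 to 1.45 CPM. The 5 endothelial markers summed to at most 1.38 CPM.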

How the data were processed

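Poly(A)-primed, tagmented 3′ end libraries were read single-end and stranded, and molecular identifiers removed duplicates, per the labels' protocols. The tools named were edgeR 3.38.4, Subread 2.1.1 with featureCounts, STAR 2.7.11, fastp 0.24.0 and SAMtools 1.22.1, and the build was mm39, per the submitters' processing notes. The authors' deposited table holds expected counts, 91.8% of them whole (tolerance 0), and CPM equal to deposited count over library total to within 4.85e-06. Fractional counts mean that values of near-identical genes are uncertain. They occurred in 0 libraries for C3, 1 for Cd55, 2 for C1ra and C1s1, 4 for C4b, 6 for Cd59a and 7 for Cfb. No annotation release is given in the sources used here.

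Counts were rounded, filtered with filterByExpr and scaled by TMM. The quasi-likelihood test of edgeR 4.0.16 (R 4.3.3, not robust, 1 mean per group, 12 libraries) was run with Benjamini-Hochberg adjustment over 14012 genes and a threshold of 0.05, after a test on simulated data. Each SE is the log2 value divided by the root of its F statistic. Members under 100 counts were compared by their summed counts, as ratios with exact 95% binomial intervals. Alternatives were RLE and library-total scaling, no filter, at least 10 CPM, DESeq2 1.42.0, limma-voom (limma 3.58.1), only the libraries of the contrast, a replicate block, unrounded counts, members summed with paralogs, no TGFβ1 replicate 3, and each library left out in turn. Shared 50-base stretches were counted on GENCODE M21 transcripts.

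The labels do not say that a replicate number marks a shared day. Libraries of the same number had weakly correlated deviations in the KO comparison of TGFβ1, at 0.201, 0.139 and 0.202. In the TGFβ1 comparison of genotype the correlations were 0.396, 0.416 and 0.726. The highest was that of replicate 3, whose TGFβ1 libraries both stood apart from their groups. The KO values overlap those of the remaining contrasts, given below. Neither the labels nor these correlations therefore establish pairing, and the replicate block is given as an alternative only.

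The members and lists were chosen with earlier results of these data known. Genes were named by a rule: all 7 members, their paralogs, listed complement genes that were called, up to 3 per direction of other lists, and the 3 genes most like C3. Cfi and Cr1l were added after their values were seen.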

Additional observations from a re-analysis of the deposited data

How the results depend on the processing

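The number of members called in control cells with TGFβ1 went from 0 to 1 with no filter on low counts, DESeq2, only the libraries of the contrast, the replicate block or no TGFβ1 replicate 3. It went from 1 to 0 for TGFβ1 in KO cells with limma-voom (C3 adjusted p = 0.0601) and for genotype with TGFβ1 with only the libraries of the contrast (C3 edgeR adjusted p = 0.315). With 1 library left out it ranged from 0 to 1 in these 3 comparisons and in genotype without TGFβ1, and was 0 for the interaction; C3 then ran from 0.67 to 1.10, 1.10 to 1.69, -2.38 to -1.97 and -1.93 to -1.33 on the log2 scale for TGFβ1 in control and KO cells and genotype without and with TGFβ1. Under the replicate block C3 was 0.90, 1.39, -2.13 and -1.64 in the same order, and the block changed no other call of a member. For TGFβ1 in control cells and genotype without TGFβ1, same-numbered libraries correlated at 0.258, -0.084 and 0.137 and at 0.149, 0.069 and 0.125. These values neither establish nor exclude pairing.

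Counts over all genes moved more. For TGFβ1 in control cells, 1234 genes became 2115 with no filter, 2397 with the block, 3414 without TGFβ1 replicate 3 and 408 to 2400 with 1 library left out. In KO cells, 1593 became 2413, 2780, 3984 and 613 to 3059. For genotype without TGFβ1, 39 became 278, 144, 201 and 8 to 24, with 17 at 10 CPM or more, 106 with DESeq2 and 135 with only the libraries of the contrast. With TGFβ1, 38 became 259, 158, 76 and 3 to 61, with 21, 89 and 4. The interaction went from 0 to 18 with no filter.

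Of 148 alternatives to the ratios of low members, 147 stayed within the wide counting intervals, but 13 fell on the other side of 1, 16 moved by over 1.5 times and 2 had an interval that left out 1. Cfb in untreated KO cells went to 0 without KO replicate 3. Depth limits these 6 genes, whose intervals span several fold.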
